A study of Homo sapiens with 3 samples.

Results

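Sprouty, SPRED and other genes that report the output of the ERK pathway were followed in SKBR3 cells, a long-established line from a human breast carcinoma with amplified ERBB2. The 10 genes were the Sprouty genes SPRY1, SPRY2 and SPRY4, SPRED1 and SPRED2, PHLDA1, ERRFI1, and the ETS factor genes ETV1, ETV4 and ETV5. They were read by every probe set whose single gene symbol in the platform annotation was one of these names, which gave 29 of 41091 probe sets with a single symbol, and 10 of 19775 genes. Before 3 h of treatment the cells had spent 4 h in 10% serum freed of steroids with charcoal. They received 1 µM estradiol, 1 µM ERα17p, a peptide copied from oestrogen receptor α, or 0.1% ethanol as vehicle. The labels name no solvent for the peptide. Each group had 1 array of total RNA, so no value below has an error, a replicate check or a p-value, and a difference is a difference between 2 RNA samples.

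The ERK pathway carries signals from receptor tyrosine kinases such as ERBB2 through Ras, Raf and MEK to the kinase ERK, which then alters transcription. Some of the genes that it switches on encode its own brakes. Sprouty and SPRED proteins act against Ras and Raf, and ERRFI1 binds and inhibits kinases of the EGF receptor family. PHLDA1 and the PEA3 group of ETS factors (ETV1, ETV4, ETV5) are widely read as outputs of the pathway, and PEA3 was described early for its abundance in mouse mammary tumours driven by the ERBB2 oncogene.

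The deposited values are log2 distances from a reference value that had been taken off each probe set, called the baseline here. Arrays can therefore be compared within a probe set, whereas levels, and with them the identity markers of the line, cannot be read. A probe set was called higher or lower past a fixed size of 1.5-fold (0.585 log2 units). Over the whole chip the vehicle array was wider spread than the treated ones: the standard deviation over all probe sets was 0.12 on the estradiol array, 0.13 on the ERα17p array and 0.27 on the vehicle array. For ACTB, the 3′ distance from the baseline less the 5′ distance was 0.02, -0.04 and 0.30 in the same order. For GAPDH it was 0.01, -0.03 and 0.05. The excess of 3′ over 5′ probe sets reflects RNA integrity. With a baseline taken off each probe set, only its changes between arrays can be read, not its size. The part of the wider spread and of these 3′ to 5′ values in the results below was not tested.

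The promoters of the 3 genes past 1.5-fold in a comparison are shown because those genes shared a direction, together with SPRY2, a Sprouty gene that did not pass it. Each is the RefSeq window from 250 bases before to 50 bases after the most upstream start, read 5′ to 3′ on the gene's strand. Capitals mark matches to the motifs searched on either strand.
SPRY4 (GRCh38.p14, chr5:142324198-142324497, strand minus): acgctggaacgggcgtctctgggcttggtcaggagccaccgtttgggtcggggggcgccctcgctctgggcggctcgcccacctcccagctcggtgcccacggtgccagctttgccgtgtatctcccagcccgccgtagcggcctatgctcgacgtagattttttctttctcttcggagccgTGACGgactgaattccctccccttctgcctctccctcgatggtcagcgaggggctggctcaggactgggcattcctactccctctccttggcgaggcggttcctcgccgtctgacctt
PHLDA1 (GRCh38.p14, chr12:76031727-76032026, strand minus): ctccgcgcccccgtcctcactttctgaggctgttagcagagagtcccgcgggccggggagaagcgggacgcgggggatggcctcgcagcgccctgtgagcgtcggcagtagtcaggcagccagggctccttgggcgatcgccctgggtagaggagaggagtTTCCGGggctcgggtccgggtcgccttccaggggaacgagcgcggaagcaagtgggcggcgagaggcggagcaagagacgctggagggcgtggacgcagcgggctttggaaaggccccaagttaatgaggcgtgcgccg
ERRFI1 (GRCh38.p14, chr1:8026260-8026559, strand minus): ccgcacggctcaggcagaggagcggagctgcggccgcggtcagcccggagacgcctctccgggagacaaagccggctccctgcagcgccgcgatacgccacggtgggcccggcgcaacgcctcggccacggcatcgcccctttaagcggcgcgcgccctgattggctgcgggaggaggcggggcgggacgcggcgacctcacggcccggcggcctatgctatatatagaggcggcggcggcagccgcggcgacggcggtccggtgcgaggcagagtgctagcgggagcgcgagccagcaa
SPRY2 (GRCh38.p14, chr13:80341077-80341376, strand minus): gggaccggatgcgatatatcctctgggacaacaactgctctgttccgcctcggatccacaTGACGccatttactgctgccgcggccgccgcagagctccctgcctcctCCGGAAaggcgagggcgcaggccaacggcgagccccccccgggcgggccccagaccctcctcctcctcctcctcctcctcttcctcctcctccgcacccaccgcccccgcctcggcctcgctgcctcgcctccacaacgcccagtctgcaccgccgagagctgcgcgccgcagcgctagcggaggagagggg

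The motifs were CCGGAA for ETS factors, TGANTCA for AP-1, TGACG as the core of the cAMP response element, and the CArG box and the NF-kB site by name. SPRY4 holds TGACG, which begins 68 bases before the start. PHLDA1 holds CCGGAA on the opposite strand, at 89 bases. ERRFI1 holds a match to none of the 5 motifs in this window. SPRY2 holds TGACG at 190 and CCGGAA at 142 bases before the start. RefSeq windows were found for 8 of the 10 genes, 17 windows in all, without ETV4 and ETV5. CCGGAA was in 6 of the 17 windows, against 17.2% of 35116 windows of this length, and TGACG was in 6 of 17, against 24.6%. By gene, each of the 2 motifs was in 4 of 8. The share over all genes was not computed, and a gene with several windows has more chances of a match. This count by gene can therefore not be set against the shares of windows. ETV1 alone has 6 of the 17 windows, and some of these overlap, so that the same site was counted again. TGANTCA was in 1 of 17, a SPRED2 window, against 7.71%. The CArG box and the NF-kB site were in 0 of 17, against 1.29% and 5.91% of all windows. No match overlapped one to another motif.

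Sprouty genes differed among themselves. SPRY4, a feedback inhibitor of growth factor signalling, had values of 0.27 on the estradiol array, -0.06 on the ERα17p array and 1.34 on the vehicle array, from 1 probe set. It stood far higher with vehicle, so that the difference was -1.07 log2 units (2.09-fold lower) for estradiol and -1.40 (2.64-fold lower) for ERα17p. The suffix of this probe set, 221489_s_at, marks probes that can take up several transcripts, and without such probe sets SPRY4 has no value. SPRY2, another Sprouty brake on Ras signalling, had 0.25 with estradiol, -0.00 with ERα17p and 0.21 with vehicle. Estradiol and vehicle were nearly level there (a difference of 0.04), and ERα17p was the low one, by -0.21 against vehicle. SPRY1, another such brake, was read by 2 probe sets, which had 0.27 and 0.01 with estradiol, -0.18 and -0.13 with ERα17p, and 0.20 and 0.01 with vehicle. ERα17p was the low array on both, with -0.38 and -0.14 against vehicle, whereas estradiol had 0.07 and -0.00 against vehicle. In all, 4 of 4 Sprouty probe sets lay below vehicle on the ERα17p array, against 44.1% of all probe sets. On the estradiol array 2 of 4 did, near the 46.1% of all probe sets. Of the Sprouty genes, SPRY4 alone passed 1.5-fold.

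SPRED genes, whose products bring the Ras inhibitor neurofibromin to the membrane, differed less. SPRED1 was read by 3 probe sets. The one furthest from the baseline, 226837_at, had 0.22 with estradiol, 0.10 with ERα17p and 0.60 with vehicle, and 235074_at had 0.14, -0.01 and 0.41 in the same order. Both were high on the vehicle array, and lay below it by -0.38 and -0.27 with estradiol and by -0.50 and -0.42 with ERα17p. The remaining SPRED1 probe set, 244439_at, lay between -0.05 and 0.01 on all 3 arrays. SPRED2 had 1 probe set of the same kind, 212458_at, with 0.14, 0.02 and 0.47, and 2 that differed from it: 212466_at was lowest with vehicle (-0.00, 0.06 and -0.13), and 214026_s_at was lowest with ERα17p (0.25, -0.23 and 0.11). No SPRED probe set passed 1.5-fold in any comparison, and the values for ERα17p against vehicle ran from -0.50 to 0.20.

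PHLDA1, a gene of the pleckstrin homology-like domain family that growth factors induce, split by probe set. On 225842_at it had 0.23 with estradiol, -0.00 with ERα17p and 2.00 with vehicle. On 217996_at it had 0.58 with estradiol, -0.33 with ERα17p and 1.90 with vehicle, and on 217997_at 0.34, -0.23 and 1.15. These 3 probe sets were high on the vehicle array, intermediate with estradiol and lowest with ERα17p. Their differences from vehicle were -1.77, -1.32 and -0.81 for estradiol (3.41-fold, 2.49-fold and 1.75-fold lower) and -2.01, -2.23 and -1.39 for ERα17p (4.02-fold, 4.70-fold and 2.62-fold lower). The other 3 probe sets of the same gene did not share this. Their vehicle values ran from -0.29 to 0.19, their differences from vehicle from 0.12 to 0.48 for estradiol and from -0.40 to 0.31 for ERα17p. Through this split the median over all 6 was -0.35 for estradiol, below the 1.5-fold size, and -0.89 (1.86-fold lower) for ERα17p. Over the 4 probe sets without a suffix for several transcripts it was -1.06 for estradiol, past that size, and -1.70 for ERα17p.

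ERRFI1, also called MIG6, is an induced inhibitor of EGF receptor family kinases, ERBB2 among them. Its single probe set had 0.09 with estradiol, 0.01 with ERα17p and 1.33 with vehicle. The treated arrays were nearly level and vehicle was high, with -1.24 (2.36-fold lower) for estradiol and -1.32 (2.50-fold lower) for ERα17p.

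**Figure D1:**
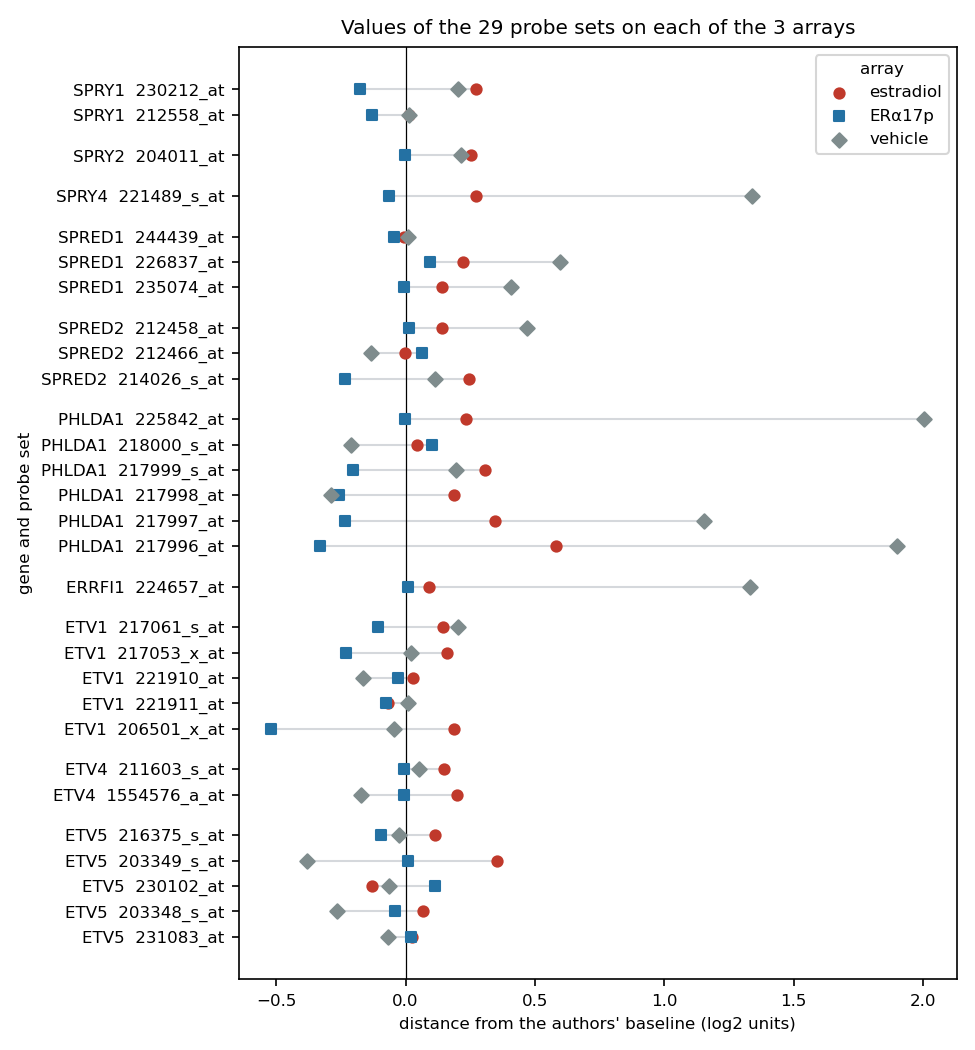
Each row is 1 of the 29 probe sets, grouped by gene, and the x axis is its distance from the authors' baseline in log2 units on the estradiol (red circles), ERα17p (blue squares) and vehicle (grey diamonds) arrays, 1 array each. The vehicle value lies beyond 1 log2 unit for SPRY4, ERRFI1 and 3 of 6 PHLDA1 probe sets, and no treated value reaches 0.585.

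ETS factor genes of the PEA3 group did not follow PHLDA1, SPRY4 and ERRFI1. ETV5 was highest with estradiol and lowest with vehicle on 203349_s_at, at 0.35, against 0.01 with ERα17p and -0.38 with vehicle. That is a difference from vehicle of 0.73 (1.66-fold higher) for estradiol and of 0.39 for ERα17p. A probe set with the same order, 203348_s_at, had 0.07, -0.04 and -0.27, and the other 3 ETV5 probe sets differed from vehicle by -0.07 to 0.14 with estradiol and by -0.07 to 0.18 with ERα17p. Both 203349_s_at and 203348_s_at carry the suffix for several transcripts. The ETV5 probe sets without it, 230102_at and 231083_at, had -0.07 and 0.10 for estradiol against vehicle. ETV4, the founding PEA3 factor, was read by 2 probe sets, with 0.15 and 0.20 for estradiol, -0.01 and -0.01 for ERα17p, and 0.05 and -0.17 for vehicle. Estradiol was the highest of the 3 arrays on both, with differences from vehicle of 0.10 and 0.37.

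ETV1, the third PEA3 factor, was read by 5 probe sets, none past 1.5-fold from vehicle. Estradiol minus vehicle ran from -0.08 to 0.23 and ERα17p minus vehicle from -0.48 to 0.14. The low end belonged to 206501_x_at, which had 0.19 with estradiol, -0.52 with ERα17p and -0.04 with vehicle. Its ERα17p value was the lowest of any of the 29 probe sets on any array. The suffix of this probe set marks probes that can also take up other transcripts. The 2 ETV1 probe sets without such a suffix, 221910_at and 221911_at, had differences of 0.14 and -0.09 for ERα17p against vehicle.

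Over all 10 genes, 5 of 29 probe sets (17.2%) were lower with estradiol than with vehicle, against 3.71% of all 41091. Of these, 3 read PHLDA1 and share its transcript. SPRY4 and ERRFI1 gave the others, and without PHLDA1 the count was 2 of 23 (8.70%). The 1 of 29 (3.45%) that was higher, against 1.38% of all, read ETV5. The members' median difference was 0.07, and that of all probe sets 0.02. On arrays of bulk RNA, fewer cells with a transcript and less of it per cell cannot be told apart.

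ERα17p gave the same count against vehicle, 5 of 29 lower (17.2%), against 2.76% of all probe sets, and 0 of 29 higher, against 0.886%. Without PHLDA1 it was again 2 of 23. Below 0 lay 20 of 29 (69.0%), against 44.1% of all, and the members' median was -0.21, that of all probe sets 0.03. Counted by gene, through the median over probe sets, 2 of 10 genes were lower with estradiol (SPRY4, ERRFI1; 2.93% of all genes) and 3 of 10 with ERα17p (PHLDA1 besides; 2.09%). Without suffixed probe sets SPRY4 dropped out, and PHLDA1 and ERRFI1 were lower with both. No gene of the 10 was higher in either, against 0.804% and 0.582% of all genes. Both comparisons use the same vehicle array, so their likeness is no separate evidence.

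**Figure D2:**
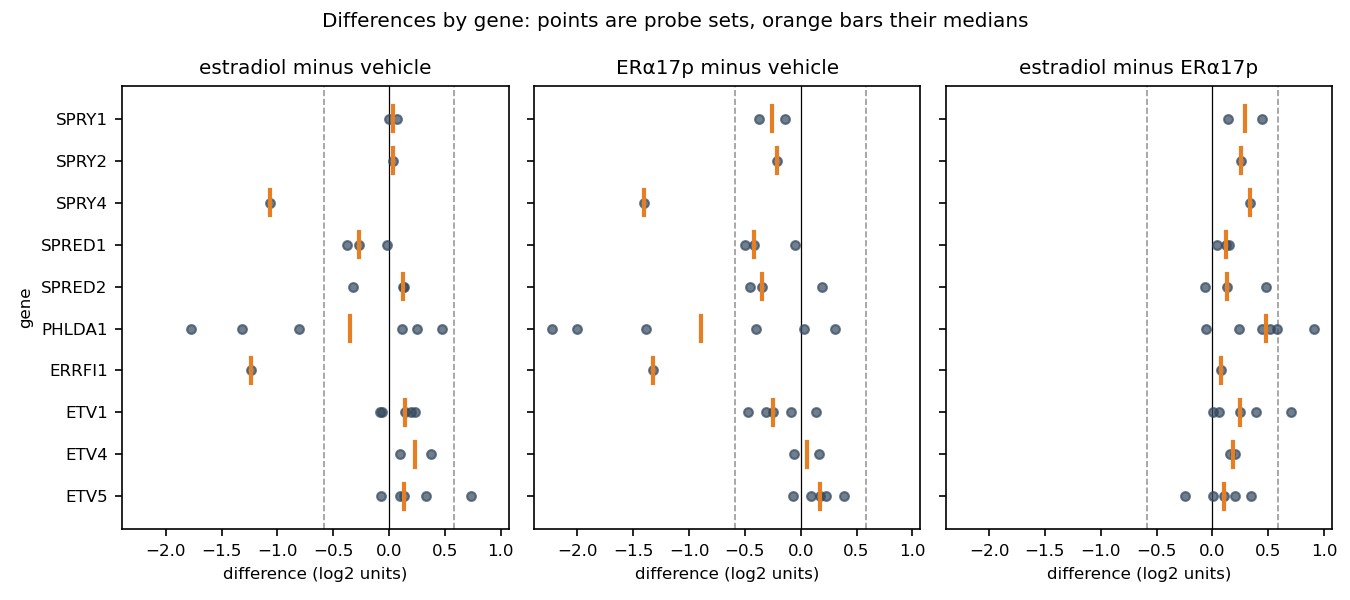
Points are log2 differences of single probe sets by gene, orange bars the median of a gene's probe sets, and dashed lines 1.5-fold, in 3 panels titled by the difference they show. SPRY4 and ERRFI1 lie beyond -1 in both comparisons with vehicle, PHLDA1 spreads from -1.77 to 0.48 and from -2.23 to 0.31, and all 10 medians lie above 0 in the direct comparison.

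The widest distances from the baseline lay on the vehicle array. On it, 6 of 29 probe sets lay at least 1.5-fold above the baseline: those of SPRY4 and ERRFI1, 3 of PHLDA1 and 226837_at of SPRED1 (2.88% of all probe sets did). None lay as far below it (0.426% of all). On the treated arrays 0 of 29 did so, and 0 of 29 lay as far below (0.0268% above and 0.056% below for estradiol, 0.0535% and 0.0292% for ERα17p, over all probe sets). With the baseline in place of the vehicle array, SPRY4 and ERRFI1 had 0.27 and 0.09 with estradiol, on the other side of 0, and -0.06 and 0.01 with ERα17p. No probe set of the 10 genes was then called for either treatment. The treated arrays may themselves have helped to set the baseline. On 221910_at of ETV1, estradiol and ERα17p lay equally far on either side of 0 (0.03 and -0.03). Treated values near 0, their narrower spread and the loss of calls may thus be partly built in. They do not measure the size of a treatment effect. The baseline is not a vehicle control, and whether vehicle was high or both treatments low cannot be told apart with 1 array each.

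The direct comparison of estradiol with ERα17p leaves out the vehicle array. The estradiol value was the higher one in 26 of 29 probe sets (89.7%), whereas over all probe sets this was so in 45.1%. The median was 0.21 over the members and -0.02 over all probe sets, and the gene medians were above 0 in 10 of 10 genes, from 0.08 for ERRFI1 to 0.48 for PHLDA1. Most of these differences were small: 2 of 29 (6.90%) passed 1.5-fold, against 0.314% of all probe sets, and 0 of 29 were lower, against 0.29%. The members were chosen with results of these arrays known, so these shares describe them and support nothing further.

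PHLDA1 on 217996_at showed the widest gap, 0.91 log2 units (1.88-fold higher with estradiol than with ERα17p). It was the highest but 3 of all 41091 probe sets, at rank 4. Of the other PHLDA1 probe sets, 4 lay between 0.24 and 0.58, and 218000_s_at had -0.06. The split that PHLDA1 showed against vehicle was not the split seen here, since 217999_s_at and 217998_at, which were not high on the vehicle array, had 0.51 and 0.44.

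ETV1 on 206501_x_at followed with 0.71 (1.63-fold higher), at rank 33. The other ETV1 probe sets had 0.39, 0.25, 0.06 and 0.01, and the lowest pair were those without a suffix for shared transcripts. Without suffixed probe sets the ETV1 median was 0.04 in place of 0.25.

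Sprouty genes lay above 0 in 4 of 4 probe sets, with 0.45 and 0.14 for SPRY1, 0.25 for SPRY2 and 0.33 for SPRY4. SPRED genes did so in 5 of 6, led by 0.48 for 214026_s_at of SPRED2. Over all probe sets 45.1% lay above 0. Of ETV4, both probe sets had 0.16 and 0.21. ETV5 ran from -0.24 on 230102_at to 0.35 on 203349_s_at, and without suffixed probe sets its median was -0.12 in place of 0.11.

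**Figure D3:**
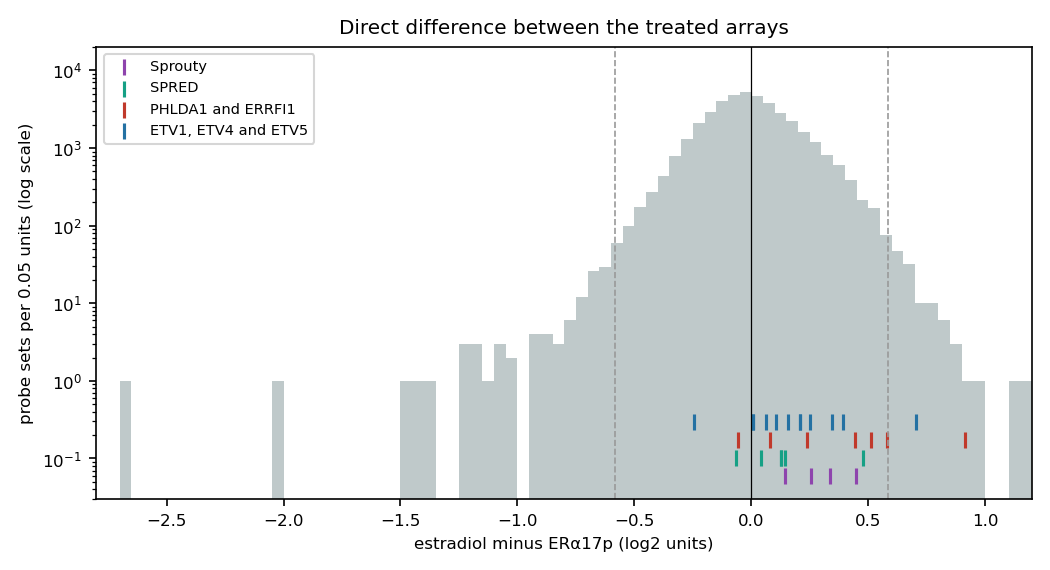
Grey bars count all 41091 probe sets by their estradiol minus ERα17p difference in log2 units, on a log scale, and coloured ticks mark the 29 probe sets by family at heights with no meaning. Of the ticks, 26 lie right of 0, and 1 of PHLDA1 (0.91) and 1 of ETV1 (0.71) lie beyond the dashed line at 1.5-fold.

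The order of the 3 arrays differed between members. Vehicle above estradiol above ERα17p was the most frequent, in 12 of 29 probe sets (41.4%, against 12.3% of all), and covered SPRY4, ERRFI1, all 3 SPRED1 probe sets and the 3 high ones of PHLDA1. Estradiol above vehicle above ERα17p followed with 8 of 29 (27.6%, against 11.2%), SPRY2 among them. Estradiol above ERα17p above vehicle, in 6 of 29 (20.7%, against 21.4%), held 3 of the 5 ETV5 probe sets and 1 each of ETV4, ETV1 and PHLDA1. ERα17p was the lowest array in 20 of 29 (69.0%, against 23.6%).

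Genes with the most similar pattern were sought among all genes by the Euclidean distance over the 3 arrays, after each gene was centred on its own mean. For SPRY4 the nearest was RBM24 (distance 0.06), with -1.13 for estradiol and -1.48 for ERα17p against vehicle. The immediate early gene EGR1 (0.08) followed, with -1.09 and -1.49. For ERRFI1 the most similar genes were PPP1R18 (0.04), with -1.20 and -1.27, and DUSP5, an ERK phosphatase gene (0.04), with -1.27 and -1.37. For PHLDA1 they were VN1R1 (0.07) and PPTC7 (0.16). The PHLDA1 values matched were medians over its 6 split probe sets. Their vehicle value, 0.67, lies between those of the high probe sets and those of the others. Each of these distances rests on 3 points.

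Other genes of the pathway were taken from lists made by role. Of 16 further ERK output genes, 6 (37.5%) were lower with estradiol than with vehicle, against 2.93% of all genes. They included the small MAF factor gene MAFF (-2.20), DUSP5 (-1.27), EGR1 (-1.09) and IER3 (-1.06). DUSP4, which encodes another ERK phosphatase, was higher by 0.73 (0.804% of all genes were higher). With ERα17p 6 of 16 were lower, MAFF by -2.44 and IER3 by -1.15 among them, against 2.09% of all genes, and 0 were higher, against 0.582%. In the direct comparison the AP-1 gene FOSL1 (0.78) and DUSP4 (0.72) were higher with estradiol (2 of 16, against 0.147% of all genes) and none was lower (0.207%). The list's median there was 0.10, that of the 10 members 0.22 and that of all genes -0.01.

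Among 15 genes of the Ras to ERK cascade analysed here, 0 passed 1.5-fold in any comparison, with medians of 0.03, -0.00 and -0.02 for estradiol against vehicle, ERα17p against vehicle and estradiol against ERα17p. Of all genes 2.93%, 2.09% and 0.207% were lower and 0.804%, 0.582% and 0.147% higher in these comparisons, so that 0 is near the share over all genes. The count was also 0 for 9 partners of Sprouty and SPRED proteins, such as the neurofibromin gene NF1, where the medians were -0.16, -0.01 and -0.04. Of 10 receptor tyrosine kinase genes 0 passed, with medians of 0.18, 0.11 and 0.03 and ERBB2 at 0.08, 0.05 and 0.03. Above 0 against vehicle lay 8 of 10 with each treatment, against 56.1% of all genes for estradiol and 57.7% for ERα17p. Among 8 paralogues of the members, the ETS repressor gene ETV3 was lower with estradiol (-0.91) and with ERα17p (-0.65) than with vehicle, and the rest did not pass. SPRY3, the remaining Sprouty gene, had 0.48 and 0.32, opposite in sign to SPRY4, and 0.16 in the direct comparison.

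The MAPK pathway activity score, a published set of 10 transcripts that holds PHLDA1, SPRY2, SPRY4, ETV4 and ETV5, had 2 lower genes (SPRY4 and the ephrin receptor gene EPHA2, -0.86) and 1 higher (DUSP4) with estradiol against vehicle, where 2.93% of all genes were lower and 0.804% higher. With ERα17p it had 3 lower (SPRY4, PHLDA1 and EPHA2, -0.88) and 0 higher, against 2.09% and 0.582% of all genes. In the direct comparison 9 of its 10 genes lay above 0, against 45.5% of all genes, with a median of 0.22, and cyclin D1 (CCND1, -0.10) was the exception. Every gene of the score is a member or one of the further ERK output genes above, so these counts are no separate evidence.

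**Figure D4:**
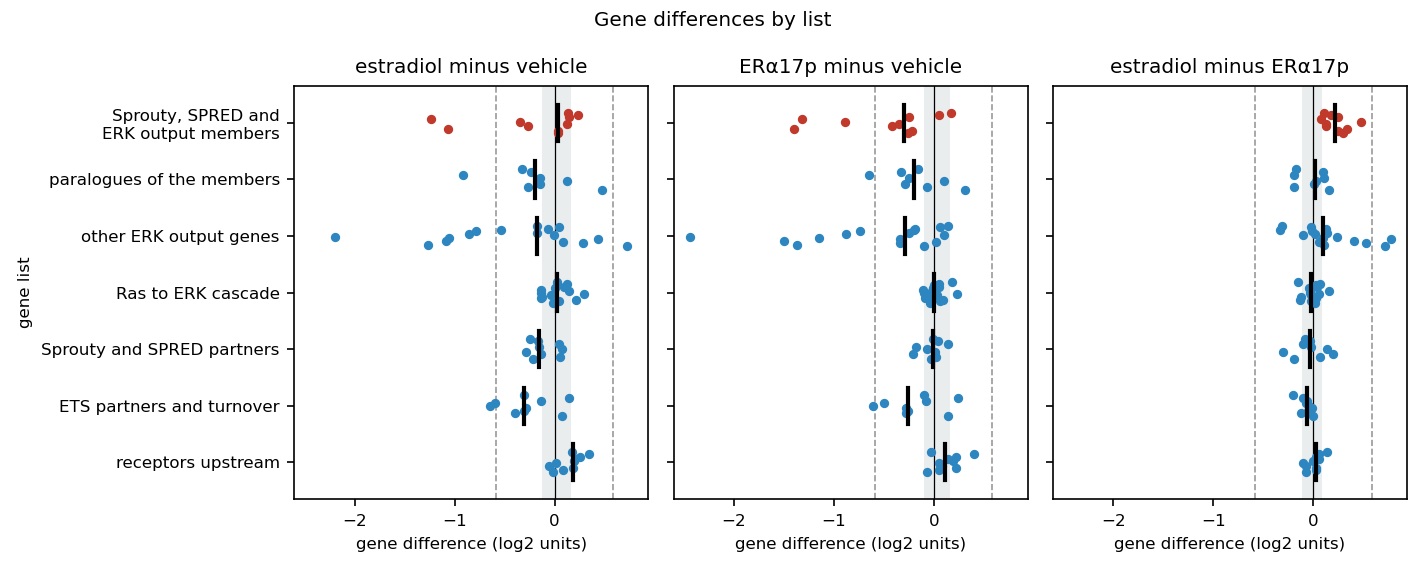
Points are gene differences in log2 units by list, black bars the median of a list, dashed lines 1.5-fold and the grey band the interquartile range of all 19775 genes, in the same 3 panels. Points beyond -1 in the comparisons with vehicle belong to the members and to the other ERK output genes, and the members' median in the direct comparison is 0.22.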

How the data were processed

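Values came from 3 arrays of SKBR3 RNA, 1 per group, grouped by the labels. Per the submitters' processing notes, the authors made the deposited values with RMA (background correction, quantile normalisation, log summary). The log2 scale of the authors' values was inferred from RMA, since no source names the base, and no RMA version was found in the labels. The values are centred: column medians lay near 0, and in 3979 of 54675 probe sets (7.28%) 2 columns were mirror images around 0 (tolerance 1e-06, values over 0.001), as a median over more arrays than these 3 would leave.

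Gene names come from the platform annotation, brought up to date through Entrez IDs with GRCh38.p14 (41037 of 41091 matched, 0 symbols changed). Left out were 62 controls, 1801 with several symbols and 11721 without one. A gene's difference is the median of its probe sets' log2 differences (Python 3.11.15, pandas 2.3.3). No signal filter was possible, and signal over background is unknown. There was no test. The calling code was tested on simulated data. The members, lists and the 1.5-fold rule were chosen with earlier results of these data known. Named were all 10 members, up to 4 genes past 1.5-fold per list, and 2 most similar genes for each called member. SPRY3, NF1, ERBB2 and CCND1 were named after their values were seen. Alternatives were a stricter (2-fold) and a looser (0.32 log2 units) size, no suffixed probe sets, the mean over probe sets, median centring and the baseline as reference.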

Additional observations from a re-analysis of the deposited data

How the results depend on the processing

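With 1 array per group nothing could be left out within a group, and no paired analysis was possible because the groups hold 1 array each. Against vehicle, the looser size of 0.32 log2 units called 7 probe sets lower and 4 higher with estradiol. With ERα17p it called 12 lower and 1 higher. Between estradiol and ERα17p it called 10 higher with estradiol and 0 lower. The shares over all probe sets were not computed at this size, so these counts cannot be set against them. The higher calls with estradiol came to 0 at 2-fold, both against vehicle and against ERα17p, and without suffixed probe sets to 0 and 1. The lower calls against vehicle came to 4 with estradiol and 5 with ERα17p at 2-fold. Without suffixed probe sets they came to 4 with each treatment. For these settings too, the shares over all probe sets were not computed. With the baseline in place of vehicle, 0 probe sets were lower with either treatment and 0 higher with estradiol, and the gene median for ERα17p was -0.0065. On that setting a value is only the treated array's own distance from the baseline, which the treated arrays may have helped to set. SPRY4 and ERRFI1 there had 0.27 and 0.091 with estradiol, and ERRFI1 had 0.0100 with ERα17p. Without suffixed probe sets SPRY4 had no value, and PHLDA1 came to -1.06 and -1.70, past 1.5-fold with both treatments. Centring each array on its median kept the sign of 30 of 30 gene differences, the mean over probe sets that of 29 of 30, the median without suffixed probe sets that of 24 of 27, and the baseline as reference that of 13 of 20.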

Other observations

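Among 9 genes that encode other ETS factors, their partners on DNA or their turnover, 2 were lower with estradiol than with vehicle and 1 with ERα17p, against 2.93% and 2.09% of all genes. The medians were -0.30 and -0.26, against 0.03 and 0.03 over all genes. Between estradiol and ERα17p 0 passed 1.5-fold (median -0.06), where 0.207% of all genes were lower and 0.147% higher. ETS1 had gene differences of -0.65 for estradiol and -0.60 for ERα17p against vehicle, from 3 probe sets that ran from -2.39 to 0.47 and from -2.00 to 0.04. ETS2 had -0.60 for estradiol and -0.49 for ERα17p. In the direct comparison ETS1 and ETS2 had -0.04 and -0.07, whereas ETV1, ETV4 and ETV5 had 0.25, 0.18 and 0.11. The ETS1 and ETS2 values lie within the interquartile range of all genes, -0.10 to 0.08, and 54.3% of all genes lay below 0. Without suffixed probe sets ETV1, ETV4 and ETV5 had 0.04, 0.21 and -0.12.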
